A study of Homo sapiens with 17 samples.

Results

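A list of 56 genes of mitosis and the kinetochore was followed across a time course of toyocamycin, an adenosine analog, in YB5 cells. The genes were chosen by name, and all 56 were found by symbol among the 19141 genes counted and passed the filter on low counts. YB5 is a line derived from SW48 colon cancer cells that carries, at 1 insertion site, a GFP gene under a methylated and silenced CMV promoter, which treated and control cells share. Polyadenylated RNA was sequenced from 17 libraries, 9 of cells given 250 nM toyocamycin and 8 of cells given the vehicle DMSO. At 2 h there were 2 libraries of each treatment, at 24 h and 48 h there was 1 of each, and at 72 h there were 3 of each, while 10 h had 1 library of DMSO and 2 of toyocamycin. The last time is 72 h in the labels, used here, and 96 h in the paper. The labels divide the libraries into 2 batches, with replicate 2 of both treatments at 2 h and at 10 h in batch 2 and the other 13 libraries in batch 1.

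Mitosis is the stage of the cell cycle in which duplicated chromosomes are condensed, attached to the spindle and pulled apart before the cell divides. Its onset is driven by cyclin-dependent kinase bound to the A and B cyclins, together with the Polo and Aurora kinases. The kinetochore is the protein structure on the centromere that grips spindle microtubules, and the spindle checkpoint holds anaphase back until each kinetochore is attached. Most of the genes for these proteins are transcribed in the G2 and M phases, under the transcription factors B-MYB (MYBL2) and FOXM1 and the MuvB proteins, and their RNA is scarce in cells that do not cycle.

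Total counts per library ran from 8735465, in replicate 2 of toyocamycin at 10 h, to 22121364. Levels are given in CPM, the counts of a gene relative to the library total, with totals adjusted by TMM, which sets libraries to a common trimmed mean. Of the colon epithelium markers, EPCAM, CDH1, KRT8, KRT18 and CDX2 were expressed in each library. KRT19 ran from 2.69 to 250.7 CPM and was lower in toyocamycin at 72 h, at -5.97 (edgeR adjusted p = 3.4e-12), while VIL1 did not exceed 5.53 CPM and LGALS4 did not exceed 5.30 CPM. Markers of fibroblasts, blood cells and endothelium reached at most 12.3 CPM, for COL1A1. The summed level of the 56 genes ran from 3919 to 5658 CPM over the 8 DMSO libraries, and the lone DMSO library of 10 h had the highest sum. In bulk RNA, fewer dividing cells and less of these RNAs per cell cannot be told apart.

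Many mitotic promoters share the motif TTTGAA, the cell cycle genes homology region (CHR), at which MuvB complexes bind, and the CCAAT box, at which NF-Y binds. The RefSeq table for GRCh38.p14 held a promoter for 48 of the 56 genes, and both strands of the 250 bases before each start were searched. A CHR was present in 25 of the 48 (52.1%), against 8.71% of the promoters of 11589 tested genes and 13.6% of all 27305 promoters. CCAAT was present in 36 (75.0%), against 34.7% and 33.0%, and both motifs were present in 21 (43.8%), against 3.49% and 4.85%. These are matches of letters only, and the 2 motifs can overlap by a base.

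The 120 bases before the start are shown for 8 genes whose values follow, 5′ to 3′ on the strand of the gene, with TTTGAA and CCAAT on either strand in capitals. PLK1, CCNB2, CDC20, CDCA8 and ESPL1 each hold both motifs and fell at 10 h and 72 h, and HMMR holds 2 adjacent CHR copies and was low at 10 h but, under TMM scaling, not at 72 h. BUB1, which was among the most reduced genes at 72 h, holds only CCAAT boxes, and MAD2L1, which was higher at 72 h under TMM scaling, holds neither motif in the bases shown. MAD2L1 is counted above as holding CCAAT, through a match 229 bases before the start.
PLK1: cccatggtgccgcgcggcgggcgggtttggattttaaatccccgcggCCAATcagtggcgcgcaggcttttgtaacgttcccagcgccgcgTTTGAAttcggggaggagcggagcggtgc
CCNB2: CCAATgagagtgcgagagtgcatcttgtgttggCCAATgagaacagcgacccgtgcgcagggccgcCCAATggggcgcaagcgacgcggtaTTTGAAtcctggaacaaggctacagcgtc
CDC20: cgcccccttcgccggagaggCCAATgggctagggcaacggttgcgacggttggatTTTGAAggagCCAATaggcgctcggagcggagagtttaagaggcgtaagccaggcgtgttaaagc
CDCA8: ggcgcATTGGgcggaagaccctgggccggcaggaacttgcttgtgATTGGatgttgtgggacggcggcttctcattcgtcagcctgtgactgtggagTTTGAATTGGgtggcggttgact
ESPL1: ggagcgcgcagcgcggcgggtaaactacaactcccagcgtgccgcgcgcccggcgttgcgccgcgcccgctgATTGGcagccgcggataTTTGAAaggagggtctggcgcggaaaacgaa
HMMR: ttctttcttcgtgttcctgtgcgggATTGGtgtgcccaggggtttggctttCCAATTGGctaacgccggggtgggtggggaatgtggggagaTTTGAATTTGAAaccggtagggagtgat
BUB1: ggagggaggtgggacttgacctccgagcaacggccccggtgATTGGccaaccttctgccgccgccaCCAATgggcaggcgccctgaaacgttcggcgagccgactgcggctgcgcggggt
MAD2L1: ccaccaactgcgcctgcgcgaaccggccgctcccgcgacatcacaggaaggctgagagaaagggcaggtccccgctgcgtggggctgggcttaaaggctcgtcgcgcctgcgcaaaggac
The windows lie at chr16:23678769-23678888 on the plus strand for PLK1, chr15:59105026-59105145 on the plus strand for CCNB2, chr1:43358861-43358980 on the plus strand for CDC20 and chr1:37692396-37692515 on the plus strand for CDCA8. Those of the other 4 genes lie at chr12:53268179-53268298 on the plus strand for ESPL1, chr5:163460512-163460631 on the plus strand for HMMR, chr2:110678064-110678183 on the minus strand for BUB1 and chr4:120066849-120066968 on the minus strand for MAD2L1. Counted from its first base to the start, the nearest CHR lay 29 bases away in PLK1 and CCNB2, 65 in CDC20, 23 in CDCA8, 31 in ESPL1 and 22 in HMMR. Among the 25 genes with a CHR the median log2 fold changes at 10 h and 72 h were -2.38 and -2.26, and among the 23 without one they were -2.07 and -2.34. A single start per gene was searched for exact TTTGAA, so a gene counted as without a CHR may hold one at another start. The windows of CENPI and NUF2, both without a match, lie inside the spans of these genes in GENCODE v44. Whether a CHR bears on the fall was not tested.

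Toyocamycin was followed by a fall of most mitotic RNAs between 2 h and 10 h, and the fall was still present at 72 h. The summed level of the 56 genes was 4214 ± 416 CPM in DMSO and 3996 ± 131 in toyocamycin at 2 h (SD, n = 2 each). It was 5658 in the DMSO library and 2197 ± 118 (SD, n = 2) in the toyocamycin libraries at 10 h, 4816 against 1859 at 24 h, 4896 against 1321 at 48 h, and 4955 ± 345 against 1245 ± 122 at 72 h (SD, n = 3 each). For 45 of the 56 genes, each of the 7 toyocamycin libraries from 10 h on lay below each of the 8 DMSO libraries, which 14.4% of the 14491 genes tested did. The other 11 were FOXM1, BIRC5, BUB3, MAD2L1, UBE2C, CENPK, CENPM, CENPN, NUSAP1, PRC1 and HMMR. Within 72 h alone, each toyocamycin library lay below each DMSO library for 51 of the 56, against 41.8% of all genes.

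**Figure D1:**
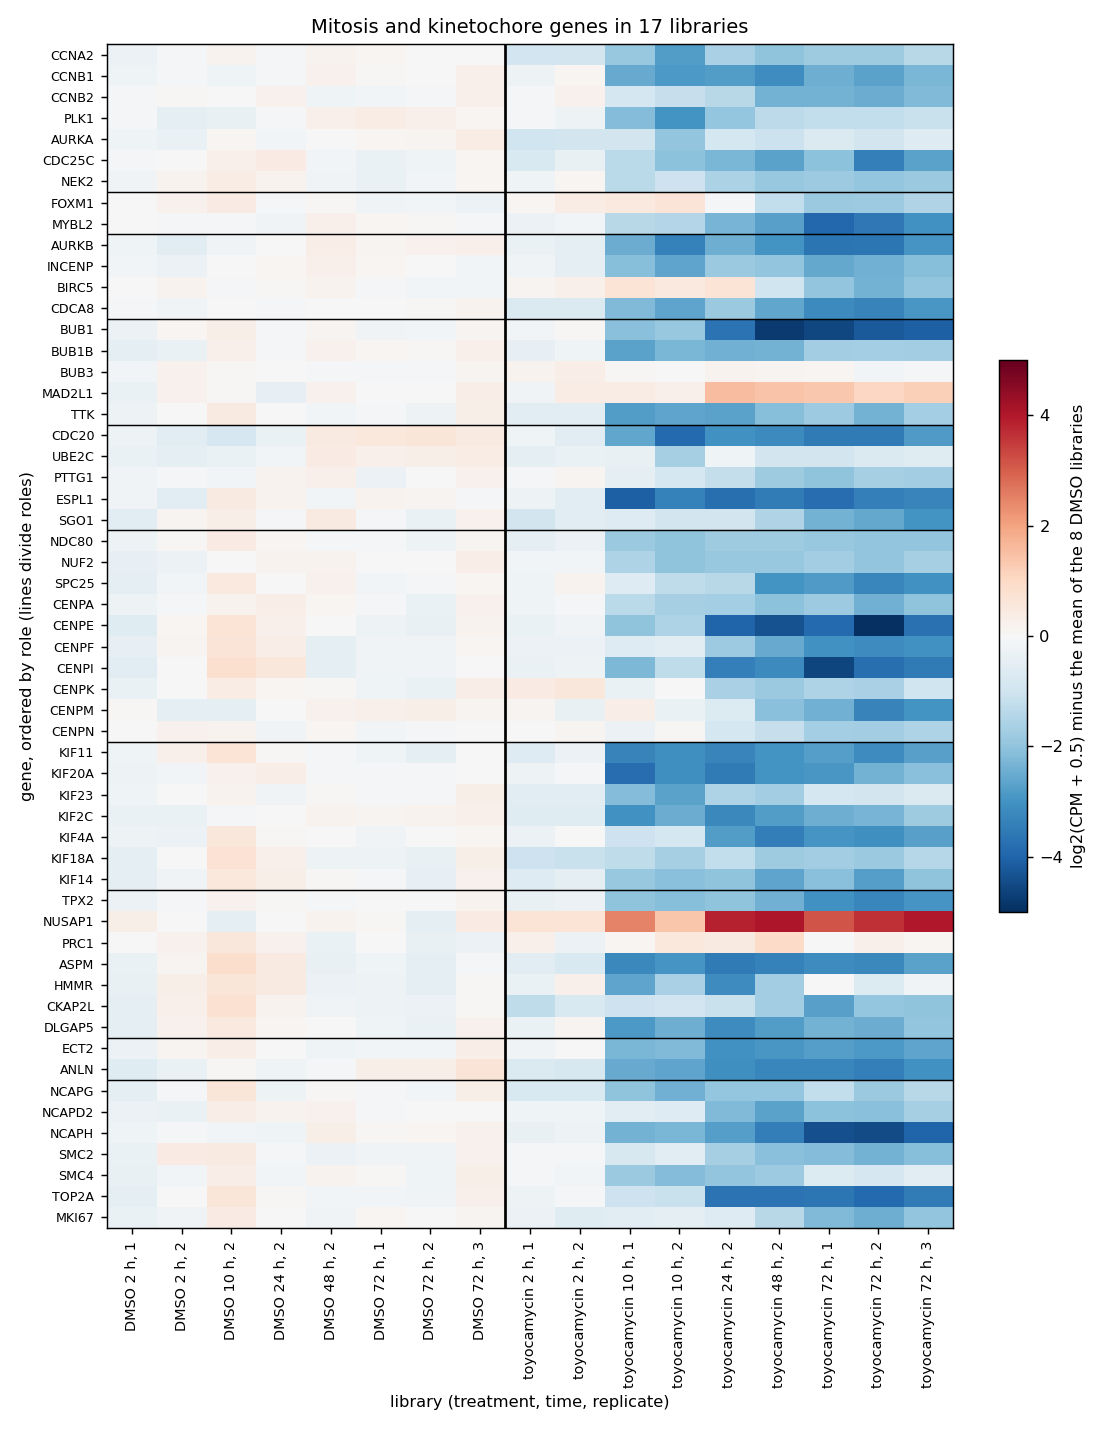
Level of each of the 56 genes (rows, by role) in each of the 17 libraries (columns, DMSO left of the black line), as log2(CPM + 0.5) minus the mean of the 8 DMSO libraries. From 10 h on most toyocamycin values are blue (lower), and for 45 of the 56 genes all 7 toyocamycin libraries lie below each DMSO library. NUSAP1, MAD2L1 and, up to 24 h, BIRC5 are above the DMSO mean, as is FOXM1 at 10 h. The rises of MAD2L1 and BIRC5 do not hold when libraries are scaled on the mitochondrially encoded genes. FOXM1 is then at a log2 fold change of -1.02 at 10 h and -2.19 at 24 h.

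Toyocamycin was compared with DMSO at each time by edgeR's quasi-likelihood test across all genes, and a gene is said to have fallen or risen where its Benjamini-Hochberg adjusted p was under 0.1. At 2 h, 5 of the 56 genes fell and 0 rose, against 8.42% and 0.518% of all genes, and at an unadjusted p under 0.05 there were 9 lower and 1 higher, while the DESeq2 Wald test called 4 lower and 0 higher. At 10 h, 45 fell and 2 rose, against 24.4% and 20.4%. At 72 h, 51 fell and 2 rose, against 41.9% and 47.0%. With 1 library of each treatment there was no test at 24 h and 48 h, where genes were counted at a 2-fold difference. At 24 h, 44 were lower and 2 higher by that measure, against 27.8% and 29.7% of all genes, and at 48 h, 52 were lower and 3 higher, against 29.9% and 38.1%. These shares of all genes also stand beside the counts by role that follow.

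Over the 5 times, the 56 genes had median log2 fold changes of -0.04, -2.20, -2.02, -2.20 and -2.23, beside 0.02, 0.42, 0.00, 0.16 and 0.18 for all genes tested. All genes tested were 16521 at 10 h and 14491 at the other times. Without replicate 2 of toyocamycin at 10 h, the medians at 10 h were -1.82 and 0.00. With the DMSO libraries of 2 h and 24 h as the control, they were -1.83 and 0.37. The 100 most abundant genes took 18.6 to 22.2% of the counts in DMSO and 31.4 to 37.4% in toyocamycin from 10 h on, and the size of the fall depended on the scaling. The mitochondrially encoded genes took 0.917 to 3.47% of the counts in DMSO and 1.46 to 6.55% in toyocamycin. Libraries of batch 2 stand only at 2 h and 10 h. Their DMSO libraries held 3.47% and 2.82% of such counts, against 0.917 to 1.49% in the DMSO libraries of batch 1. The part of batch in a scaling on these genes was not tested. Scaled on these genes, called mitochondrial scaling here, the medians of the 56 were -0.12, -3.26, -4.29, -4.05 and -3.26, beside -0.06, -0.70, -2.16, -1.64 and -0.89 for all genes. Under mitochondrial scaling 49 of the 56 were lower at 10 h and 53 at 72 h, against 32.5% and 50.8% of all genes, and 1 was higher at each time, against 3.04% and 29.0%. It added CENPK, CENPN, PTTG1 and UBE2C to the lower genes at 10 h and BUB3 and HMMR at 72 h. The 56 genes had the lower median from 10 h on under each of the 4 scalings tried.

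**Figure D2:**
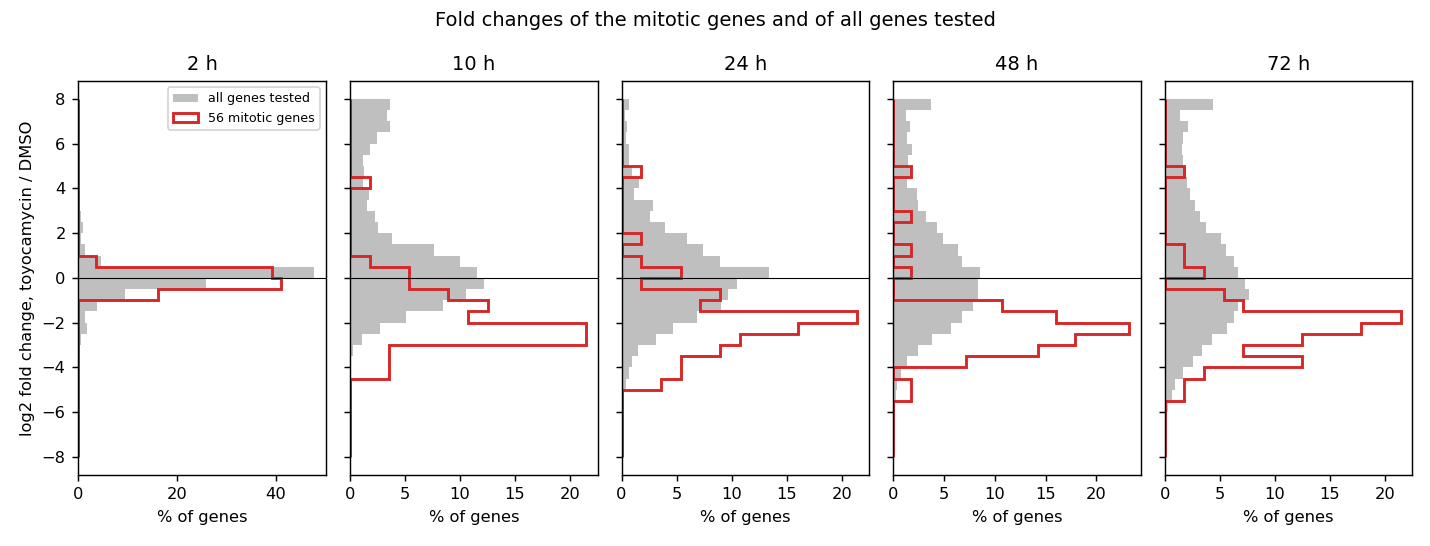
Distribution of log2 fold changes (vertical axis, toyocamycin over DMSO, bins of 0.5) of the 56 mitotic genes (red outline) and of all genes tested (grey) at each time, as % of genes on the horizontal axis, with values past 8 placed in the end bins. The red outline sits on the grey at 2 h (medians -0.04 and 0.02) and below it from 10 h on (medians -2.20 and 0.42 at 10 h, -2.23 and 0.18 at 72 h).

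The response at 2 h was small and mixed. CKAP2L, a spindle protein, held 14.1 and 23.8 CPM in DMSO against 7.995 and 11.5 CPM in toyocamycin and had the lowest log2 fold change, -0.96 (SE 0.28, edgeR adjusted p = 0.055). The kinesin KIF18A held 7.70 and 11.1 against 5.05 and 4.71 CPM, at -0.93 (SE 0.28, edgeR adjusted p = 0.057). Next came CCNA2 at -0.78 (SE 0.17, edgeR adjusted p = 0.0082). AURKA fell too, at -0.72 (SE 0.16, edgeR adjusted p = 0.0089), and so did CDCA8, at -0.58 (SE 0.15, edgeR adjusted p = 0.032), which is named because only 5 genes fell. The highest values at 2 h, 0.84 for NUSAP1, 0.69 for CENPK and 0.27 for SPC25, did not pass the test. For 18 of the 56 genes both toyocamycin libraries lay below both DMSO libraries, against 20.3% of all genes. Same-numbered libraries of 2 h belong to the same batch, and in a fit of these 4 libraries with the replicate number as a block 13 genes fell (18.7% of all 11848 genes in that fit did), adding CDC25C, TTK, KIF11, KIF23, KIF2C, ASPM, ANLN and NCAPG, and 1 rose, CENPK (8.72% of all genes did). Under mitochondrial scaling 0 of the 56 genes fell at 2 h by edgeR's test, also at an unadjusted p under 0.05, while 2 fell without replicate 1 of toyocamycin and 3 fell without replicate 2 of either treatment.

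The cyclins and kinases of mitotic entry all fell. Of the 7 genes, 2 had fallen at 2 h, 7 had fallen at 10 h (median log2 fold change -2.07) and 7 had fallen at 72 h (median -1.77). CCNA2 (chr4:121816444-121823883; positions are GRCh38, from GENCODE v44) encodes cyclin A2, which acts in S phase and at mitotic entry. In DMSO, CCNA2 stood at 71.0 and 84.9 CPM at 2 h, at 98.6, 84.6 and 98.3 in the single libraries of 10 h, 24 h and 48 h, and at 93.2, 88.1 and 87.6 at 72 h. With toyocamycin, CCNA2 stood at 45.2 and 45.8, then 23.3 and 12.3, then 28.0, then 21.6, and finally 25.4, 25.4 and 33.7 CPM at the same times. Both toyocamycin libraries of 2 h already lay below all 8 DMSO libraries, and the log2 fold change was -2.45 (SE 0.28, edgeR adjusted p = 1.1e-05) at 10 h and -1.64 (SE 0.14, edgeR adjusted p = 2.5e-08) at 72 h. CCNB1 (chr5:69167135-69178245), the main B cyclin of mitosis, had not fallen at 2 h. CCNB1 held 127 and 144 CPM in DMSO against 125 and 157 with toyocamycin at 2 h, and 128 against 25.2 and 19.8 at 10 h. CCNB1 then held 144 against 20.8 at 24 h, 171 against 16.8 at 48 h, and 153, 149 and 175 against 27.0, 22.6 and 29.8 CPM at 72 h. At 2 h the CCNB1 values of the treatments overlapped, and from 10 h on all toyocamycin values were far below those of DMSO, with a log2 fold change of -2.51 (SE 0.24, edgeR adjusted p = 2.3e-06) at 10 h and -2.55 (SE 0.15, edgeR adjusted p = 2.6e-10) at 72 h.

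PLK1 (chr16:23677656-23690367) encodes Polo-like kinase 1, which acts at centrosomes, kinetochores and the midzone. For PLK1 the DMSO libraries gave 105 and 81.1 CPM at 2 h, 83.7, 102 and 132 at the next 3 times and 143, 131 and 116 at 72 h. For PLK1 the toyocamycin libraries gave 106 and 92.3, 23.8 and 13.4, 28.5, 43.5, and 46.2, 46.4 and 50.5 CPM in that order of times. PLK1 was lowest at 10 h, at -2.16 (SE 0.28, edgeR adjusted p = 2.4e-05), and its 72 h value of -1.41 (SE 0.14, edgeR adjusted p = 1.0e-07) was less far from DMSO, a difference that did not pass the test at 0.71 (SE 0.34, edgeR adjusted p = 0.101). AURKA (chr20:56369389-56392337), the Aurora kinase of the centrosome and spindle pole, was the least reduced of the 7 at 72 h. Levels of AURKA in toyocamycin were 31.5 and 33.4 CPM after 2 h, 33.4 and 15.8 after 10 h, 34.9 after 24 h, 30.2 after 48 h and 38.2, 33.6 and 41.1 after 72 h. Levels of AURKA in DMSO were 55.6 and 51.6, 68.1, 58.7, 63.4, and 68.0, 70.6 and 82.1 CPM at those times. AURKA was lower at each time, at -1.46 (SE 0.30, edgeR adjusted p = 0.0013) at 10 h and -0.93 (SE 0.13, edgeR adjusted p = 6.1e-06) at 72 h. The other 3 genes also fell, with log2 fold changes at 10 h and 72 h of -1.03 and -2.37 for the B cyclin CCNB2, of -2.07 and -2.92 for CDC25C, the phosphatase that activates the mitotic kinase, and of -1.59 and -1.77 for the centrosomal kinase NEK2.

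The 2 transcription factors differed in timing. MYBL2 (chr20:43667019-43716495) encodes B-MYB, which joins the MuvB core at mitotic promoters. In DMSO, MYBL2 stood at 71.7 and 69.7 CPM at 2 h, at 67.7, 64.6 and 85.5 in the single libraries of 10 h, 24 h and 48 h, and at 77.6, 75.8 and 67.5 at 72 h. With toyocamycin, MYBL2 stood at 59.0 and 65.2, then 27.3 and 26.0, then 13.96, then 10.6, and finally 4.23, 5.56 and 8.52 CPM at the same times. MYBL2 had fallen at 10 h, at -1.34 (SE 0.26, edgeR adjusted p = 9.2e-04), and was lower still at 72 h, at -3.55 (SE 0.20, edgeR adjusted p = 1.5e-10). FOXM1 (chr12:2857680-2877174), which is recruited to the same promoters in G2, did not pass the test at 10 h, when most of the other genes were low. FOXM1 held 117 and 134 CPM in DMSO against 124 and 153 with toyocamycin at 2 h, and 156 against 163 and 182 at 10 h. FOXM1 then held 108 against 113 at 24 h, 122 against 49.0 at 48 h, and 104, 107 and 94.1 against 32.2, 32.6 and 40.4 CPM at 72 h. The 2 toyocamycin libraries of 10 h held the highest FOXM1 values of all 17, with a log2 fold change of 0.14 (SE 0.23, edgeR adjusted p = 0.61). Under TMM scaling the fall of FOXM1 appeared at 48 h and stood at -1.51 (SE 0.14, edgeR adjusted p = 6.3e-08) at 72 h. Under mitochondrial scaling FOXM1 was already at -2.19 at 24 h. With the DMSO libraries of 2 h and 24 h as the control, FOXM1 at 10 h was 0.57 (edgeR adjusted p = 0.015). Under the other settings tried it ran from -1.02, with mitochondrial scaling, to 0.35, with adjusted p from 0.144 to 0.873. The effect on FOXM1 at 72 h differed from that at 10 h by -1.68 (SE 0.29, edgeR adjusted p = 1.3e-04).

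**Figure D3:**
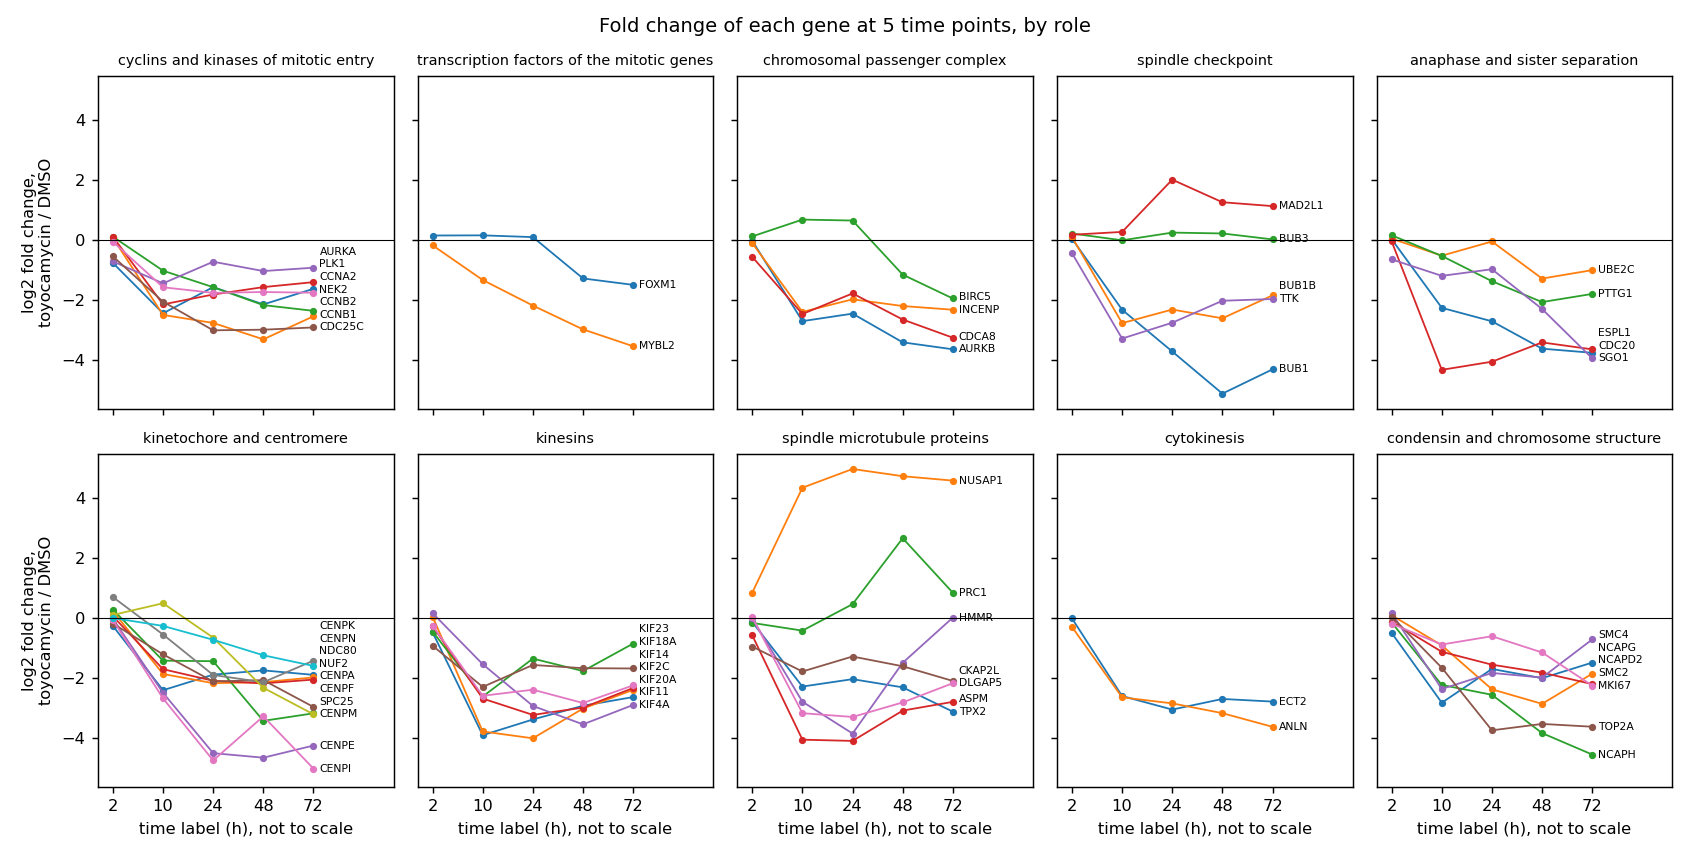
Log2 fold change of each gene (toyocamycin over DMSO, lines coloured by gene) against the time label, in 10 panels by role; the values at 24 h and 48 h compare 1 library with 1. Most lines drop between 2 h and 10 h and stay below 0, whereas FOXM1, BIRC5 and CENPM are still above 0 at 10 h and drop later, and HMMR is at 0.00 at 72 h; under mitochondrial scaling those 3 genes are below 0 at 10 h and HMMR is at -1.01 at 72 h.

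The chromosomal passenger complex corrects faulty kinetochore attachments and directs cytokinesis. By 72 h all 4 of its genes had fallen (median log2 fold change -2.80), but at 10 h 3 had fallen and BIRC5 had risen. AURKB (chr17:8204733-8210600) is the kinase of the complex. For AURKB the DMSO libraries gave 51.2 and 40.7 CPM at 2 h, 52.7, 59.4 and 76.3 at the next 3 times and 65.1, 70.4 and 71.4 at 72 h. For AURKB the toyocamycin libraries gave 47.0 and 42.5, 10.4 and 5.31, 10.7, 6.996, and 4.32, 4.45 and 7.21 CPM in that order of times. From 10 h on AURKB in toyocamycin did not exceed 10.7 CPM, against at least 40.7 CPM in DMSO, and the log2 fold change was -2.71 (SE 0.31, edgeR adjusted p = 1.1e-05) at 10 h and -3.65 (SE 0.19, edgeR adjusted p = 7.6e-11) at 72 h. BIRC5 (chr17:78214186-78225636) encodes survivin, a subunit of the complex that is also known as an inhibitor of apoptosis. Levels of BIRC5 in toyocamycin were 207 and 229 CPM after 2 h, 308 and 266 after 10 h, 307 after 24 h, 95.4 after 48 h and 47.9, 36.6 and 47.8 after 72 h. Levels of BIRC5 in DMSO were 189 and 215, 181, 199, 218, and 179.9, 172 and 174 CPM at those times. Both toyocamycin libraries of 10 h and the one of 24 h lay above all 8 DMSO libraries, and all toyocamycin libraries of 48 h and 72 h lay below them. The rise of BIRC5 at 10 h, 0.67 (SE 0.24, edgeR adjusted p = 0.037), was 0.20 (edgeR adjusted p = 0.45) under library size alone. Under mitochondrial scaling BIRC5 was at -0.45 at 10 h and at -1.64 at 24 h. The fall of BIRC5 at 72 h was -1.96 (SE 0.13, edgeR adjusted p = 1.7e-09). The scaffold INCENP had log2 fold changes of -2.41 and -2.33 at 10 h and 72 h, and borealin, CDCA8, had -2.48 and -3.27.

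The 5 spindle checkpoint genes split. BUB1, BUB1B and TTK had fallen at 10 h and 72 h, BUB3 did not pass the test at 2 h, 10 h or 72 h under TMM scaling, and MAD2L1 rose at 72 h under TMM scaling. BUB1 (chr2:110637528-110678063) encodes the kinase that recruits checkpoint proteins to the kinetochore. In DMSO, BUB1 stood at 73.3 and 96.8 CPM at 2 h, at 111, 86.4 and 98.7 in the single libraries of 10 h, 24 h and 48 h, and at 78.3, 80.5 and 97.4 at 72 h. With toyocamycin, BUB1 stood at 81.7 and 92.5, then 20.4 and 23.8, then 6.47, then 2.77, and finally 3.34, 4.35 and 4.78 CPM at the same times. BUB1 kept falling after 10 h, from -2.33 (SE 0.24, edgeR adjusted p = 3.9e-06) to -4.32 (SE 0.19, edgeR adjusted p = 9.7e-12) at 72 h, which made it the third lowest of the 56 genes. TTK (chr6:80003887-80042527), the checkpoint kinase MPS1, was lowest at 10 h instead. TTK held 27.2 and 33.0 CPM in DMSO against 21.5 and 22.5 with toyocamycin at 2 h, and 44.2 against 4.28 and 4.75 at 10 h. TTK then held 32.2 against 4.68 at 24 h, 29.6 against 7.08 at 48 h, and 30.5, 27.3 and 39.5 against 8.75, 5.84 and 9.56 CPM at 72 h. Its log2 fold change was -3.29 (SE 0.29, edgeR adjusted p = 1.3e-06) at 10 h and -1.98 (SE 0.20, edgeR adjusted p = 1.6e-07) at 72 h. BUB1B, which encodes BUBR1, had -2.78 and -1.85.

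BUB3 (chr10:123154402-123170467), which carries BUB1 and BUBR1 to the kinetochore, showed overlapping values of the 2 treatments at 2 h, 10 h and 72 h. For BUB3 the DMSO libraries gave 126 and 159 CPM at 2 h, 143, 135 and 134 at the next 3 times and 129, 127 and 153 at 72 h. For BUB3 the toyocamycin libraries gave 158 and 172, 145 and 137, 158, 152, and 146, 125 and 132 CPM in that order of times. The log2 fold change of BUB3 was -0.02 (SE 0.23, edgeR adjusted p = 0.94) at 10 h and 0.01 (SE 0.13, edgeR adjusted p = 0.95) at 72 h. The value of BUB3 at 72 h depended on the scaling, with -0.59 (edgeR adjusted p = 0.0007) under library size alone, -1.04 (edgeR adjusted p = 0.029) under mitochondrial scaling and 0.33 (edgeR adjusted p = 0.025) under DESeq2 size factors. At 10 h BUB3 was -0.48 (edgeR adjusted p = 0.097) under library size alone. MAD2L1 (chr4:120055623-120066858) encodes MAD2, the subunit that inhibits CDC20. Levels of MAD2L1 in toyocamycin were 66.0 and 98.0 CPM after 2 h, 97.6 and 89.0 after 10 h, 222 after 24 h, 202 after 48 h and 189, 155 and 169.9 after 72 h. Levels of MAD2L1 in DMSO were 58.8 and 87.5, 78.0, 55.97, 86.7, and 73.8, 74.4 and 93.8 CPM at those times. Through 10 h the MAD2L1 values of toyocamycin were within or just above the range of DMSO, and from 24 h on all 5 toyocamycin libraries held at least 155 CPM against at most 93.8 CPM in DMSO. The rise of MAD2L1 was 1.12 (SE 0.18, edgeR adjusted p = 2.8e-05) at 72 h, and under mitochondrial scaling the values were -0.27 at 24 h, -0.60 at 48 h and 0.08 (edgeR adjusted p = 0.88) at 72 h.

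The genes of anaphase and sister separation had all fallen at 72 h (5 of 5, median log2 fold change -3.65), and 3 of 5 had fallen at 10 h. CDC20 (chr1:43358981-43363203) activates the anaphase promoting complex. In DMSO, CDC20 stood at 168 and 139.7 CPM at 2 h, at 112, 162 and 273 in the single libraries of 10 h, 24 h and 48 h, and at 289, 305 and 273 at 72 h. With toyocamycin, CDC20 stood at 174 and 136, then 32.8 and 13.04, then 24.3, then 21.6, and finally 16.9, 16.9 and 28.3 CPM at the same times. The DMSO level of CDC20 was itself higher at 72 h than at 2 h, by 0.91 (SE 0.20, edgeR adjusted p = 0.007), and the toyocamycin level was below it from 10 h on, at -2.27 (SE 0.38, edgeR adjusted p = 2.9e-04) and then -3.77 (SE 0.20, edgeR adjusted p = 8.9e-11). UBE2C (chr20:45812576-45816957), the ubiquitin-conjugating enzyme of that complex, had a smaller log2 fold change. UBE2C held 66.9 and 59.9 CPM in DMSO against 62.0 and 68.0 with toyocamycin at 2 h, and 66.9 against 65.2 and 26.5 at 10 h. UBE2C then held 77.9 against 73.9 at 24 h, 112 against 44.7 at 48 h, and 101, 104 and 109.8 against 45.2, 51.2 and 55.9 CPM at 72 h. The UBE2C libraries of toyocamycin at 10 h disagreed, 65.2 CPM in replicate 1 and 26.5 CPM in replicate 2, and the log2 fold change of -0.53 (SE 0.34, edgeR adjusted p = 0.21) did not pass the test, whereas that at 72 h was -1.02 (SE 0.12, edgeR adjusted p = 1.5e-06).

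PTTG1 (chr5:160421855-160428739) encodes securin, which holds separase inactive. For PTTG1 the DMSO libraries gave 28.6 and 30.7 CPM at 2 h, 29.3, 36.3 and 38.5 at the next 3 times and 26.5, 31.9 and 37.6 at 72 h. For PTTG1 the toyocamycin libraries gave 30.6 and 35.1, 23.0 and 17.02, 13.8, 8.95, and 7.67, 9.82 and 9.30 CPM in that order of times. Its level in toyocamycin was below each DMSO library from 10 h on, with -0.54 (SE 0.25, edgeR adjusted p = 0.11) at 10 h, which did not pass the test under TMM scaling, and -1.81 (SE 0.17, edgeR adjusted p = 7.2e-08) at 72 h. ESPL1 encodes separase, the protease that cleaves cohesin, and it had the lowest log2 fold change of the 56 genes at 10 h, at -4.34 (SE 0.29, edgeR adjusted p = 4.1e-07). ESPL1 stood at 87.0 CPM in DMSO against 3.28 and 5.53 CPM in toyocamycin at 10 h, and its log2 fold change at 72 h was -3.65 (SE 0.18, edgeR adjusted p = 4.9e-11). SGO1, which protects centromeric cohesin, had log2 fold changes of -1.21 at 10 h and -3.95 at 72 h, where its 3 toyocamycin libraries held 4, 3 and 1 counts. The call of SGO1 at 10 h was lost without replicate 2 of toyocamycin (-1.06, edgeR adjusted p = 0.104), and over the other settings tried its adjusted p ran from 0.00577 to 0.129.

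All 10 kinetochore and centromere genes had fallen at 72 h (median log2 fold change -2.52), of which 7 had fallen at 10 h (median of the 10, -1.57). NDC80 (chr18:2571557-2616635) encodes the microtubule-binding subunit of the outer kinetochore. Levels of NDC80 in toyocamycin were 23.3 and 26.2 CPM after 2 h, 8.50 and 7.52 after 10 h, 9.15 after 24 h, 9.03 after 48 h and 8.35, 7.88 and 7.73 after 72 h. Levels of NDC80 in DMSO were 26.6 and 33.3, 42.9, 34.4, 31.0, and 29.7, 26.9 and 35.1 CPM at those times. NDC80 in toyocamycin from 10 h on kept within 7.52 to 9.15 CPM, with log2 fold changes of -2.42 (SE 0.23, edgeR adjusted p = 2.3e-06) at 10 h and -1.90 (SE 0.16, edgeR adjusted p = 2.4e-08) at 72 h. Its partner NUF2 had -1.88 and -1.99 at these times, and SPC25, of the same complex, had -1.43 and -3.19. CENPA (chr2:26764289-26801067) is the histone H3 variant that marks the centromere. In DMSO, CENPA stood at 19.7 and 22.001 CPM at 2 h, at 27.2, 30.4 and 25.3 in the single libraries of 10 h, 24 h and 48 h, and at 22.7, 18.6 and 27.5 at 72 h. With toyocamycin, CENPA stood at 20.5 and 22.7, then 9.14 and 7.29, then 7.02, then 5.45, and finally 6.49, 4.08 and 5.56 CPM at the same times. CENPA fell at both times, -1.72 (SE 0.27, edgeR adjusted p = 1.7e-04) and -2.06 (SE 0.20, edgeR adjusted p = 9.7e-08), and the difference between them did not pass the test at -0.38 (SE 0.35, edgeR adjusted p = 0.44).

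CENPE (chr4:103105349-103198445) encodes the kinesin that moves chromosomes to the spindle equator. CENPE held 29.4 and 47.5 CPM in DMSO against 35.6 and 39.3 with toyocamycin at 2 h, and 72.6 against 10.8 and 15.0 at 10 h. CENPE then held 54.0 against 2.34 at 24 h, 44.2 against 1.71 at 48 h, and 37.8, 34.9 and 50.5 against 2.56, 0.834 and 2.87 CPM at 72 h. Its toyocamycin values of 10 h lay between those of DMSO and the later ones, which did not exceed 2.87 CPM, and the log2 fold change went from -2.50 (SE 0.37, edgeR adjusted p = 8.9e-05) to -4.26 (SE 0.31, edgeR adjusted p = 3.2e-09). CENPF (chr1:214603185-214664574), a large coiled-coil protein of the outer kinetochore, fell in the same order. For CENPF the DMSO libraries gave 163 and 238 CPM at 2 h, 334, 269 and 158 at the next 3 times and 189, 188 and 231 at 72 h. For CENPF the toyocamycin libraries gave 177 and 173, 138 and 149, 61.0, 36.8, and 25.8, 23.9 and 26.0 CPM in that order of times. The CENPF values of 10 h, 138 and 149 CPM, lay just below the lowest DMSO library at 158 CPM, and those of 72 h were between 23.9 and 26.0 CPM, with log2 fold changes of -1.22 (SE 0.24, edgeR adjusted p = 8.4e-04) and -2.97 (SE 0.16, edgeR adjusted p = 9.6e-11).

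CENPI, of the inner kinetochore, had the lowest log2 fold change of the 56 genes at 72 h, at -5.03 (SE 0.40, edgeR adjusted p = 8.7e-09). It held 203, 217 and 261 counts in the DMSO libraries of 72 h and 0, 4 and 6 counts in the toyocamycin libraries, so its size at 72 h rests on few reads. CENPK, CENPM and CENPN, also inner kinetochore proteins, did not pass the test at 10 h under TMM scaling. Under mitochondrial scaling CENPK was -1.74 (edgeR adjusted p = 0.027) and CENPN was -1.45 (edgeR adjusted p = 0.072) at 10 h, and both also passed as lower under library size alone. Levels of CENPM in toyocamycin were 33.3 and 23.5 CPM after 2 h, 38.3 and 24.4 after 10 h, 19.0 after 24 h, 6.83 after 48 h and 5.41, 2.59 and 3.39 after 72 h. Levels of CENPM in DMSO were 31.5 and 21.7, 22.6, 30.4, 35.1, and 36.7, 37.3 and 33.9 CPM at those times. At 10 h 1 of the 2 toyocamycin libraries held more CENPM than any DMSO library, and from 48 h on the toyocamycin libraries did not exceed 6.83 CPM. CENPM was 0.48 (SE 0.35, edgeR adjusted p = 0.26) at 10 h, among the 3 highest of the 56 genes although it did not pass the test (0.77, edgeR adjusted p = 0.087, without replicate 2 of toyocamycin, and -0.60 under mitochondrial scaling), and -3.22 (SE 0.24, edgeR adjusted p = 5.3e-09) at 72 h. At 72 h both CENPK and CENPN had fallen, with log2 fold changes of -1.43 and -1.61.

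The 7 kinesins, the motor proteins of the spindle, had fallen at 10 h (median log2 fold change -2.63) and at 72 h (median -2.34). KIF11 (chr10:92574105-92655395) encodes the motor Eg5, which pushes the spindle poles apart. In DMSO, KIF11 stood at 106 and 144 CPM at 2 h, at 194, 127 and 116 in the single libraries of 10 h, 24 h and 48 h, and at 104, 89.9 and 122 at 72 h. With toyocamycin, KIF11 stood at 78.3 and 99.7, then 11.7 and 14.1, then 12.0, then 15.0, and finally 17.6, 13.4 and 18.4 CPM at the same times. KIF11 had its lowest log2 fold change at 10 h, the third lowest of the 56 genes at -3.91 (SE 0.27, edgeR adjusted p = 4.1e-07), and the value at 72 h was -2.64 (SE 0.18, edgeR adjusted p = 1.6e-09). KIF2C (chr1:44739818-44767767) encodes the microtubule depolymerase MCAK. KIF2C held 66.7 and 66.7 CPM in DMSO against 54.8 and 55.3 with toyocamycin at 2 h, and 78.4 against 9.85 and 14.6 at 10 h. KIF2C then held 82.0 against 8.60 at 24 h, 95.8 against 11.8 at 48 h, and 93.3, 95.998 and 100.2 against 15.0, 16.4 and 24.2 CPM at 72 h. It was low throughout from 10 h on, at -2.69 (SE 0.27, edgeR adjusted p = 3.2e-06) and, at 72 h, -2.34 (SE 0.16, edgeR adjusted p = 1.9e-09).

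KIF23 (chr15:69414246-69448427) is a motor of the central spindle and midbody. For KIF23 the DMSO libraries gave 58.7 and 69.0 CPM at 2 h, 78.3, 61.1 and 71.3 at the next 3 times and 65.0, 64.7 and 84.0 at 72 h. For KIF23 the toyocamycin libraries gave 46.2 and 46.6, 14.8 and 10.3, 23.5, 20.4, and 37.4, 36.1 and 41.4 CPM in that order of times. KIF23 in toyocamycin went from 14.8 and 10.3 CPM at 10 h back to 36.1 to 41.4 CPM at 72 h, still below the lowest DMSO library, and the log2 fold change went from -2.63 (SE 0.24, edgeR adjusted p = 1.9e-06) to -0.86 (SE 0.14, edgeR adjusted p = 2.9e-05). KIF20A, another motor of the central spindle, had log2 fold changes of -3.79 at 10 h and -2.41 at 72 h, while the chromosome motor KIF4A had -1.55 and -2.91. KIF14 and KIF18A also fell, to -2.60 and -2.31 at 10 h and to -2.25 and -1.69 at 72 h.

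Of 7 spindle microtubule proteins, 5 had fallen at 10 h and 4 at 72 h, with NUSAP1 higher at both. TPX2 (chr20:31739271-31801805) activates AURKA on spindle microtubules. Levels of TPX2 in toyocamycin were 153 and 161 CPM after 2 h, 48.2 and 45.2 after 10 h, 49.2 after 24 h, 37.2 after 48 h and 23.5, 19.9 and 25.5 after 72 h. Levels of TPX2 in DMSO were 159 and 188, 229, 205, 189, and 198, 196 and 223 CPM at those times. TPX2 fell at 10 h and further at 72 h, -2.29 (SE 0.21, edgeR adjusted p = 2.0e-06) and -3.13 (SE 0.14, edgeR adjusted p = 1.5e-11). ASPM (chr1:197084121-197146694), a spindle pole protein, was the second lowest of the 56 genes at 10 h. In DMSO, ASPM stood at 50.2 and 69.0 CPM at 2 h, at 116, 87.3 and 48.8 in the single libraries of 10 h, 24 h and 48 h, and at 54.4, 45.3 and 61.3 at 72 h. With toyocamycin, ASPM stood at 42.5 and 36.7, then 6.28 and 7.74, then 5.02, then 5.61, and finally 6.78, 6.30 and 9.39 CPM at the same times. The 7 ASPM values of toyocamycin from 10 h on did not exceed 9.39 CPM, and the log2 fold change was -4.06 (SE 0.28, edgeR adjusted p = 4.1e-07) at 10 h and -2.80 (SE 0.19, edgeR adjusted p = 1.9e-09) at 72 h.

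HMMR, a spindle assembly protein also known as a hyaluronan receptor, was lower at 10 h and less so or not at 72 h, depending on the scaling. Its toyocamycin libraries held 3.36 and 7.29 CPM at 10 h against 35.9 CPM in DMSO, 2.20 against 32.3 CPM at 24 h and 6.67 against 19.3 CPM at 48 h. At 72 h the 3 toyocamycin libraries held 24.2, 14.7 and 21.0 CPM and overlapped the DMSO libraries at 19.6, 16.9 and 24.6 CPM. The log2 fold change of HMMR was -2.80 (SE 0.40, edgeR adjusted p = 7.4e-05) at 10 h and 0.00 (SE 0.23, edgeR adjusted p = 0.99) at 72 h, where it was -0.60 (edgeR adjusted p = 0.024) under library size alone and -1.01 (edgeR adjusted p = 0.028) under mitochondrial scaling. DLGAP5 fell, with log2 fold changes of -3.18 and -2.18 at 10 h and 72 h, as did CKAP2L, with -1.79 and -2.11.

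PRC1 was counted at very low levels in all libraries, and NUSAP1 in those of DMSO and of 2 h, which bears on their values. NUSAP1, a microtubule bundler near chromosomes, had 4 to 18 counts in the DMSO libraries and 18 to 194 in the toyocamycin libraries from 10 h on. NUSAP1 held 0.673 and 0.463 CPM in DMSO against 1.04 and 1.03 with toyocamycin at 2 h, and 0.169 against 4.85 and 1.99 at 10 h. NUSAP1 then held 0.428 against 13.3 at 24 h, 0.578 against 15.1 at 48 h, and 0.495, 0.186 and 0.773 against 7.96, 11.6 and 14.9 CPM at 72 h. From 10 h on each toyocamycin library held more NUSAP1 than any DMSO library, the lowest being replicate 2 of 10 h. Its log2 fold change of 4.33 (SE 0.82, edgeR adjusted p = 7.3e-04) at 10 h and 4.57 (SE 0.36, edgeR adjusted p = 9.2e-09) at 72 h was the highest of the 56 genes at both times. PRC1 (chr15:90966040-90995629), the protein that bundles microtubules at the midzone, had 4 to 19 counts in the 17 libraries. For PRC1 the DMSO libraries gave 0.379 and 0.514 CPM at 2 h, 0.801, 0.506 and 0.193 at the next 3 times and 0.396, 0.186 and 0.215 at 72 h. For PRC1 the toyocamycin libraries gave 0.539 and 0.217, 0.428 and 0.774, 0.688, 1.22, and 0.393, 0.556 and 0.435 CPM in that order of times. The PRC1 values of the treatments overlapped at 2 h and 72 h, and at 72 h the log2 fold change of 0.83 (SE 0.60, edgeR adjusted p = 0.2) did not pass the test. In GENCODE v44, 86.8% of the exon bases of NUSAP1 and 57.6% of those of PRC1 are shared with other genes on the same strand. The paper names STAR's GeneCounts mode for the counting. The strand setting and how that mode treats reads on shared bases are not stated in the sources used here. The part of such reads in these values was not tested.

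Both cytokinesis genes fell at 10 h and 72 h. ECT2 (chr3:172750682-172821474) encodes the exchange factor that activates RhoA at the cleavage furrow. Levels of ECT2 in toyocamycin were 88.9 and 99.1 CPM after 2 h, 19.9 and 21.1 after 10 h, 11.8 after 24 h, 12.9 after 48 h and 14.5, 13.3 and 15.6 after 72 h. Levels of ECT2 in DMSO were 80.5 and 111, 125, 99.1, 85.4, and 90.7, 91.9 and 127 CPM at those times. From 10 h on ECT2 in toyocamycin was between 11.8 and 21.1 CPM, against at least 80.5 CPM in DMSO, with log2 fold changes of -2.61 (SE 0.25, edgeR adjusted p = 2.3e-06) and then -2.79 (SE 0.17, edgeR adjusted p = 5.4e-10). ANLN (chr7:36389821-36453791) encodes anillin, a scaffold of the contractile ring. In DMSO, ANLN stood at 129 and 159 CPM at 2 h, at 205, 172 and 185 in the single libraries of 10 h, 24 h and 48 h, and at 241, 244 and 307 at 72 h. With toyocamycin, ANLN stood at 120.1 and 113, then 33.8 and 31.4, then 23.6, then 20.01, and finally 20.2, 18.1 and 24.0 CPM at the same times. In DMSO the ANLN level was higher at 72 h than at 2 h, by 0.87 (SE 0.16, edgeR adjusted p = 0.0021), and against that the fall was -3.64 (SE 0.16, edgeR adjusted p = 1.3e-11) at 72 h, after -2.65 (SE 0.23, edgeR adjusted p = 1.3e-06) at 10 h.

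The 7 genes of condensin and chromosome structure had all fallen at 10 h (median log2 fold change -1.67) and at 72 h (median -2.21). TOP2A (chr17:40388525-40417896) encodes topoisomerase II alpha, which untangles sister chromatids. TOP2A held 299 and 404 CPM in DMSO against 336 and 384 with toyocamycin at 2 h, and 616 against 199 and 188 at 10 h. TOP2A then held 418 against 30.7 at 24 h, 370.4 against 31.3 at 48 h, and 371, 359.8 and 479.5 against 32.7, 27.1 and 35.5 CPM at 72 h. The 2 toyocamycin libraries of 10 h lay between DMSO and the later libraries, in which TOP2A did not exceed 35.5 CPM, and the log2 fold change was -1.67 (SE 0.25, edgeR adjusted p = 1.1e-04) at 10 h and -3.63 (SE 0.18, edgeR adjusted p = 3.2e-11) at 72 h. MKI67 (chr10:128096659-128126423) encodes Ki-67, the coat of mitotic chromosomes used as a marker of cycling cells. For MKI67 the DMSO libraries gave 286 and 319 CPM at 2 h, 477, 355 and 312 at the next 3 times and 386, 364 and 394 at 72 h. For MKI67 the toyocamycin libraries gave 290.4 and 236, 249.1 and 264, 229, 137, and 76.6, 65.5 and 91.3 CPM in that order of times. MKI67 was reduced less at 10 h than at 72 h, at -0.89 (SE 0.23, edgeR adjusted p = 0.0069) at 10 h and -2.26 (SE 0.15, edgeR adjusted p = 8.1e-10) at 72 h. The value at 10 h was -0.35 (edgeR adjusted p = 0.11) with the DMSO libraries of 2 h and 24 h as the control, and at most 0.0439 in adjusted p under the other settings tried.

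SMC2 (chr9:104094260-104141419) and SMC4 are the ATPase pair of condensin. Levels of SMC2 in toyocamycin were 38.7 and 38.4 CPM after 2 h, 22.8 and 27.6 after 10 h, 12.4 after 24 h, 8.95 after 48 h and 8.45, 7.32 and 8.78 after 72 h. Levels of SMC2 in DMSO were 31.7 and 52.6, 55.3, 37.0, 32.4, and 35.5, 34.8 and 46.1 CPM at those times. SMC2 decreased at 10 h and more at 72 h, -1.14 (SE 0.27, edgeR adjusted p = 0.0042) and -2.21 (SE 0.20, edgeR adjusted p = 4.4e-08). SMC4 (chr3:160399274-160434954) did the opposite. In DMSO, SMC4 stood at 64.7 and 74.8 CPM at 2 h, at 106, 74.9 and 95.1 in the single libraries of 10 h, 24 h and 48 h, and at 85.7, 71.7 and 102 at 72 h. With toyocamycin, SMC4 stood at 79.3 and 75.5, then 22.6 and 18.0, then 20.7, then 23.4, and finally 52.1, 46.1 and 55.4 CPM at the same times. At 72 h SMC4 in toyocamycin was back to 46.1 to 55.4 CPM, below the lowest DMSO library, and the log2 fold change was -2.38 (SE 0.24, edgeR adjusted p = 3.3e-06) at 10 h and -0.72 (SE 0.14, edgeR adjusted p = 2.2e-04) at 72 h. NCAPG (chr4:17810979-17844865), a subunit of condensin I, had its lowest levels at 10 h. NCAPG held 32.7 and 42.8 CPM in DMSO against 26.5 and 26.5 with toyocamycin at 2 h, and 68.0 against 10.9 and 8.07 at 10 h. NCAPG then held 37.9 against 11.5 at 24 h, 46.5 against 11.3 at 48 h, and 43.3, 40.5 and 54.5 against 19.0, 12.1 and 16.9 CPM at 72 h. The values were -2.83 (SE 0.28, edgeR adjusted p = 3.0e-06) at 10 h and -1.50 (SE 0.18, edgeR adjusted p = 1.4e-06) at 72 h, and 33.7% of the exon bases of NCAPG are shared with LCORL on the opposite strand. NCAPH belongs to the same complex. For NCAPH the DMSO libraries gave 58.7 and 62.5 CPM at 2 h, 61.8, 57.3 and 83.4 at the next 3 times and 70.0, 72.9 and 77.3 at 72 h. For NCAPH the toyocamycin libraries gave 52.1 and 56.4, 12.7 and 13.5, 9.56, 5.69, and 2.75, 2.59 and 3.74 CPM in that order of times. From 10 h on its toyocamycin values did not exceed 13.5 CPM, and NCAPH fell by 2.24 at 10 h and by 4.56 at 72 h, the second lowest of the 56 genes. NCAPD2 fell by 0.92 at 10 h and its log2 fold change at 72 h was -1.87.

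**Figure D4:**
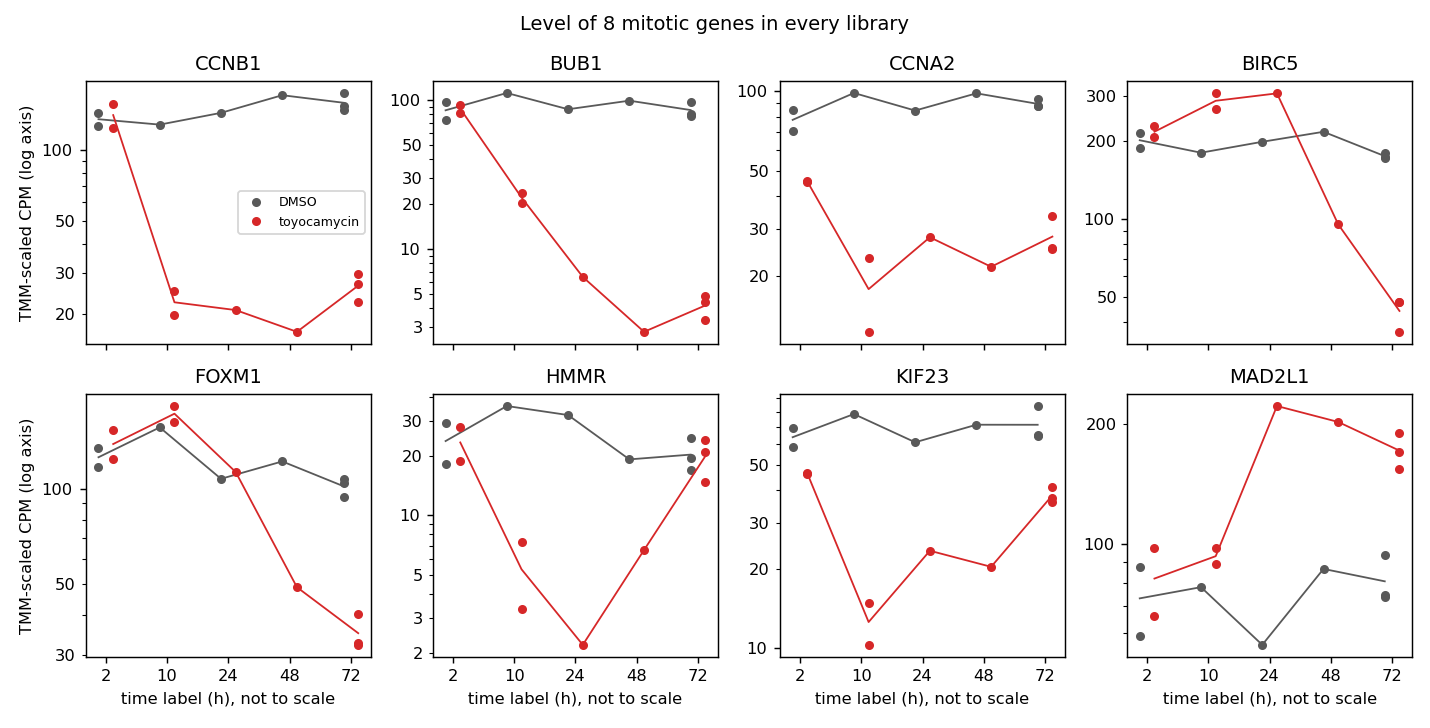
TMM-scaled CPM (log axis) of 8 genes in every library against the time label, DMSO in grey and toyocamycin in red, with points for libraries and lines through their means. CCNB1 and BUB1 drop by 10 h and stay low, CCNA2 is already lower at 2 h, and BIRC5 and FOXM1 drop after 24 h under TMM scaling. HMMR and KIF23 are higher at 72 h than at 10 h in toyocamycin (14.7 to 24.2 and 36.1 to 41.4 CPM), and MAD2L1 is at 155 CPM or more from 24 h on. Under mitochondrial scaling the rise of MAD2L1 does not hold, and BIRC5 and FOXM1 are at log2 fold changes of -1.64 and -2.19 at 24 h.

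Between 10 h and 72 h the log2 fold change moved lower for some of the 56 genes and higher for others. The effect at 72 h was tested against that at 10 h in the fit of all 17 libraries, a comparison added after the data had been seen. It was lower at 72 h for 24 genes, higher for 12 and passed the test in neither direction for 20, against 26.6% lower and 25.4% higher of all genes. The median differences were -0.36 for the 56 and -0.20 for all genes, and without replicate 2 of toyocamycin at 10 h they were -0.41 and 0.41. The largest moves lower were those of CENPM, SGO1 and BIRC5, of which only SGO1 had fallen at 10 h under TMM scaling. The largest moves back towards DMSO were those of HMMR, KIF23 and SMC4. These 6 genes were named after their values were seen. Each comparison at 10 h rests on the lone DMSO library, in which the summed level of the 56 genes was the highest of the 8, and that library is of batch 2, while the toyocamycin libraries of 10 h are 1 of each batch. With the DMSO libraries of 2 h and 24 h as the control at 10 h, 27 genes were lower and 8 higher at 72 h. Of the 12, 6 then lost the call, namely CCNA2, BUB1B, MAD2L1, ASPM, DLGAP5 and NCAPG, and PLK1 and NUSAP1 gained it. Under mitochondrial scaling 6 were lower and 2, HMMR and KIF23, were higher, against 15.1% and 15.4% of all genes.

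**Figure D5:**
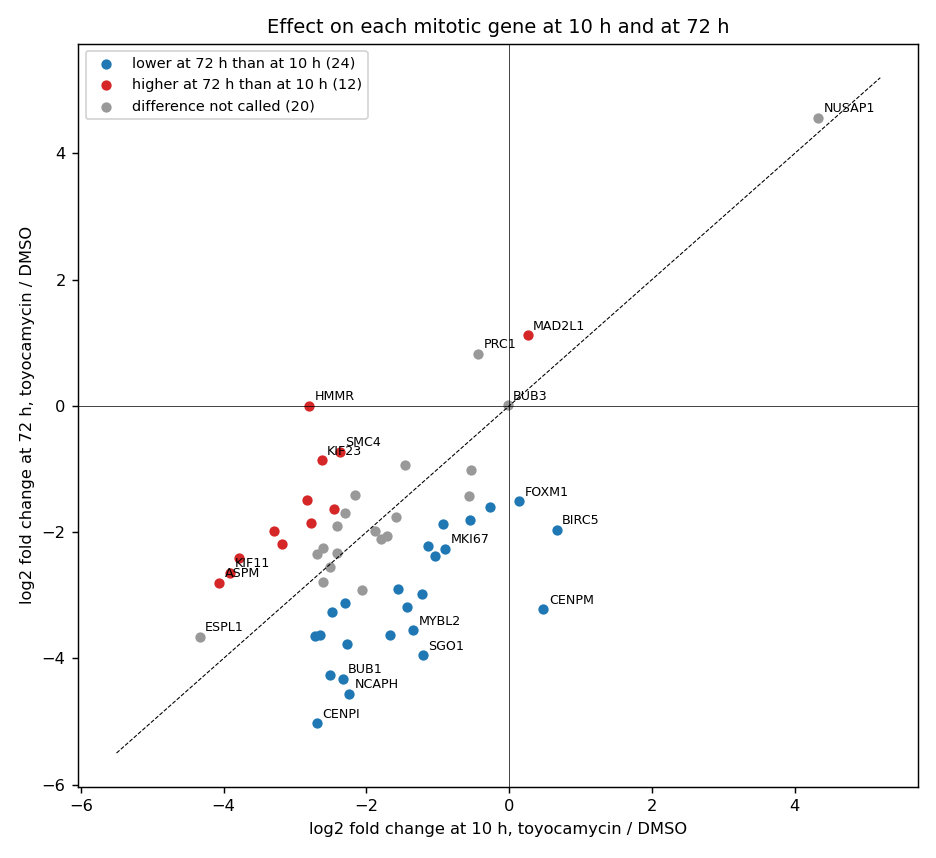
Log2 fold change of each of the 56 genes (toyocamycin over DMSO) at 10 h (horizontal axis) and at 72 h (vertical axis), coloured by whether the effects of the 2 times differed in edgeR's test; the dashed line marks equal effects. The 24 blue points are lower at 72 h, with CENPM and BIRC5 farthest right among them, the 12 red points are higher at 72 h, with HMMR at 0.00, and 20 points are grey.

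By the lowest of the 5 log2 fold changes, 2 genes were lowest at the first time, 15 at 10 h, 10 and 11 at the 2 times that follow, and 18 at 72 h. The effect at 72 h was lower than that at 2 h for 49 genes and higher for 2, against 38.1% and 38.0% of all genes. In DMSO alone, 9 of the 56 genes were higher at 72 h than at 2 h and 0 lower by edgeR's test (0 lower also at an unadjusted p under 0.05), against 10.2% and 11.4% of all genes. The 9 were PLK1, AURKA, AURKB, BUB1B, CDC20, UBE2C, NUF2, KIF2C and ANLN, with the largest log2 changes in CDC20 (0.91) and ANLN (0.87). Replicate 2 of DMSO at 2 h is of batch 2 and the other libraries of this comparison are of batch 1, so time and batch are partly mixed in it. With batch as a term 3 of the 56 were higher, and under mitochondrial scaling 2 were. Under neither setting was the share of the 56 that was higher above that of all genes. Without replicate 2 of DMSO at 2 h 4 genes were higher, and without replicate 2 of DMSO at 72 h 5.

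A further 109 genes of the same pathways were counted without being chosen for the main list, and 108 were tested. At 2 h 16 of them fell and 0 rose by edgeR's test (18 and 1 at an unadjusted p under 0.05), at 10 h 65 fell and 8 rose, and at 72 h 83 fell and 13 rose. Of all genes, 8.42% fell at 2 h, 24.4% fell and 20.4% rose at 10 h, and 41.9% fell and 47.0% rose at 72 h. Their median log2 fold change was -0.95 at 10 h and -1.44 at 72 h, beside 0.42 and 0.18 for all genes. For all genes, mitochondrial scaling moved the median at 72 h to -0.89 and the share higher to 29.0%. Values of the 108 genes are given under TMM scaling alone, and how their falls and rises depend on the scaling was not tested. Of the 19 spindle and cytokinesis genes among them, 18 fell at 10 h and 18 at 72 h. The lowest at 72 h were CIT, the citron kinase of the midbody, at -3.70 (SE 0.13, edgeR adjusted p = 1.8e-12), and SPAG5, the spindle protein astrin, at -3.54 (SE 0.14, edgeR adjusted p = 5.1e-12), and the highest were FAM83D at 0.11 (SE 0.13, edgeR adjusted p = 0.45) and DEPDC1 at -0.47 (SE 0.19, edgeR adjusted p = 0.032). Of 15 genes of cohesin and condensin II, 13 fell at 10 h and 13 at 72 h, when 1 rose. NCAPG2 and NCAPD3, of condensin II, were at -3.95 (SE 0.17, edgeR adjusted p = 1.1e-11) and -3.44 (SE 0.13, edgeR adjusted p = 2.5e-12) at 72 h, and the cohesin loader NIPBL and the release factor WAPL were at 0.85 (SE 0.16, edgeR adjusted p = 1.3e-04) and -0.15 (SE 0.13, edgeR adjusted p = 0.28).

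The other kinetochore and checkpoint genes were more divided, with 16 of 34 lower and 4 higher at 10 h and 25 lower and 5 higher at 72 h. Of all genes, 24.4% were lower and 20.4% higher at 10 h, and 41.9% were lower and 47.0% higher at 72 h. SPC24, the partner of SPC25, was at -6.95 (SE 0.33, edgeR adjusted p = 2.8e-11) and ZWILCH, of the complex that brings dynein to the kinetochore, at -4.37 (SE 0.34, edgeR adjusted p = 8.0e-09) at 72 h. MAD1L1, which holds MAD2 at the kinetochore, was at 6.50 (SE 0.43, edgeR adjusted p = 9.7e-10) and CENPL at 3.25 (SE 0.17, edgeR adjusted p = 7.3e-11). Among 15 other regulators of mitotic entry and exit, 12 were lower and 2 higher at 72 h. The phosphatase CDC25B was lowest at -7.00 (SE 0.18, edgeR adjusted p = 2.7e-13), then the inhibitory kinase PKMYT1 at -3.92 (SE 0.27, edgeR adjusted p = 2.0e-09), and FBXO5, the inhibitor of the anaphase promoting complex known as EMI1, was highest at 3.11 (SE 0.15, edgeR adjusted p = 3.9e-11), before ARPP19 at 1.98 (SE 0.17, edgeR adjusted p = 1.8e-08).

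Subunits of the anaphase promoting complex had the median nearest 0 of these lists at 72 h, -0.42, with 7 of 15 lower, a share near the 41.9% of all genes, and 4 higher. ANAPC4 and CDC23 were lowest, at -3.32 (SE 0.22, edgeR adjusted p = 1.1e-09) and -1.57 (SE 0.14, edgeR adjusted p = 3.4e-08), and ANAPC10 and ANAPC2 were highest, at 2.71 (SE 0.25, edgeR adjusted p = 6.1e-08) and 1.97 (SE 0.17, edgeR adjusted p = 2.6e-08). Of the DREAM and MuvB complex, which represses the mitotic genes in resting cells, 8 of 10 tested genes were lower and 1 higher at 72 h. RBBP4 and TFDP1 were at -3.24 (SE 0.13, edgeR adjusted p = 5.7e-12) and -2.60 (SE 0.13, edgeR adjusted p = 4.1e-11), and E2F4 and E2F5 were at 0.38 (SE 0.15, edgeR adjusted p = 0.023) and -0.03 (SE 0.23, edgeR adjusted p = 0.91).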

How the data were processed

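RNA-seq libraries of YB5 cells were grouped by the treatment, time and replicate in their labels. Reads were aligned to GRCh38 with STAR 2.7.5a and counted per gene by STAR, and the authors deposited raw counts of 19141 genes, without normalization. The strand setting is not given in the sources used here. Of the columns, 1 matched no sample and was not used. A deposited table of fold changes and p-values, from the comparisons of the authors, was not used. Total counts of 8735465 to 22121364 per library limit the precision of low genes.

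Genes were filtered with filterByExpr, scaled with TMM and tested with edgeR's quasi-likelihood test (edgeR 4.0.16, limma 3.58.1, R 4.3.3; legacy form), with Benjamini-Hochberg adjustment over all genes, at an adjusted p under 0.1 and no minimum fold change. A fit without the 10 h libraries (14 libraries, 14491 genes) gave the results at 2, 24, 48 and 72 h, and one with all 17 (16521 genes) gave those at 10 h, where the lone DMSO library was taken to vary like the other groups. Standard errors (SE) are the log2 fold change over the square root of the F statistic. Printed CPM come from the scaling of all 17 libraries. Figures and sequences were handled in Python 3.11.15 with pandas 2.3.3.

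The 56 genes, their roles and the other lists were chosen with earlier results of these data known. Named with values in every library were 32 preset genes, with the 3 lowest and 3 highest genes at 2, 10 and 72 h and the 2 lowest and 2 highest of each other list at 72 h, beside counts for each role. Values of the other genes of a role are given in brief. Alternatives were DESeq2 1.42.0 size factors, library size, mitochondrial scaling, no filter on low counts, batch as a term, the DESeq2 Wald test, edgeR 4's quasi-likelihood form, an adjusted p under 0.05, other library sets, leaving out each library, and the replicate number as a block. The comparison of 72 h with 10 h, and the use of the DMSO libraries of 2 h and 24 h as control, were chosen after seeing the data. At 2 h the number is the batch, so it pairs the libraries, and same-numbered libraries deviated together (r = 0.307 across genes). At 72 h the correlations were -0.105, 0.0427 and -0.0876, and the number was not taken as a pairing. The scripts were tested on simulated data with few changed genes, balanced between rises and falls, at 72 h alone. That test does not cover the scaling where many genes change, or the lone DMSO library of 10 h.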

Additional observations from a re-analysis of the deposited data

Results flagged for a closer look

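The effect of toyocamycin on the mitotic genes differed between times by tests of the difference itself. At 72 h it was lower than at 2 h for 49 genes and higher for 2, NUSAP1 and MAD2L1, against 38.1% and 38.0% of all genes. Compared with 10 h, the effect at 72 h was lower for 24 genes and higher for 12. Of all genes, 26.6% were lower and 25.4% higher in that comparison, so the share of the 56 that was higher is not above that of all genes. Under mitochondrial scaling 6 of the 56 were lower and 2 higher, against 15.1% and 15.4% of all genes. The genes with the largest differences, in log2 units at 72 h minus 10 h, were CENPM (-3.73), SGO1 (-2.77) and BIRC5 (-2.66) on the lower side and HMMR (2.77), KIF23 (1.73) and SMC4 (1.62) on the higher side, each past an edgeR adjusted p of 0.1. Over the alternatives tried, these differences ran from -4.06 to -3.36 for CENPM, -3.27 to -2.35 for SGO1, -2.76 to -2.51 for BIRC5, 2.27 to 3.42 for HMMR, 1.41 to 2.03 for KIF23 and 1.07 to 1.80 for SMC4, and of the 6 genes SMC4 alone lost the call, under mitochondrial scaling (edgeR adjusted p = 0.13).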

How the results depend on the processing

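Of 302 member values past their threshold, 249 kept direction and side of the threshold under each alternative run. At 2 h, the 5 genes that fell became 0 under mitochondrial scaling, 3 in one fit of all 17 libraries, 3 at an adjusted p under 0.05, and 13 with 1 higher with the replicate block, and ran from 2 to 7 without each library. The block left the 72 h counts at 51 lower and 2 higher. Mitochondrial scaling left 1 higher gene at 10 h, 24 h, 48 h and 72 h and in the difference of 72 h from 2 h, 2 genes higher in DMSO at 72 h, and 6 lower and 2 higher for 72 h against 10 h. Under it BIRC5 at 10 h turned to -0.45, and MAD2L1 to -0.27 at 24 h, -0.60 at 48 h and -0.01238 for 72 h minus 2 h. Library size alone gave 1 higher gene at 10 h, at 24 h and for 72 h minus 2 h, and 1 lower and 4 higher in DMSO. DESeq2 size factors gave 4 higher at 72 h, adding BUB3 and PRC1. The libraries of 10 h and 2 h alone gave 1 higher at 10 h, and DMSO of 2 h and 24 h as control gave 45 lower and 4 higher. Batch as a term gave 3 higher in DMSO. Without each library, genes lower numbered 44 to 47 at 10 h, 51 to 51 at 72 h, 48 to 50 for 72 h minus 2 h and 22 to 25 for 72 h minus 10 h, and genes higher 2 to 3, 2 to 2, 2 to 2 and 9 to 13, with 0 lower and 4 to 9 higher in DMSO. The cause of these changes was not tested. NUSAP1, PRC1, SGO1 and CENPI rest on few counts in at least 1 treatment.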

Other observations

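The 56 genes spanned a median of 34.0 kb in GENCODE v44, beside 31.4 kb for all genes tested. Split by span into 3 groups, they had median log2 fold changes of -1.46 at 10 h and -1.96 at 72 h for the 19 shortest genes (4.22 to 25.6 kb), -2.35 and -2.02 for the 18 in the middle, and -2.29 and -2.80 for the 19 longest (45.4 to 131 kb). Across the 56 genes, which share their libraries, Spearman's rho between span and log2 fold change was -0.13, -0.25 and -0.22 at 2 h, 10 h and 72 h, beside -0.09, -0.06 and -0.14 across all genes with a span. These are descriptions, with no test.

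At 10 h the batch 2 pair of libraries, taken alone, gave a median log2 ratio of -2.16 for the 56 genes. Without replicate 1 of toyocamycin 47 genes fell and 2 rose at 10 h, and without replicate 2, the library with the fewest counts, 44 fell and 3 rose.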
